A study of Mus musculus with 6 samples.

Results

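The comparison described here is Smyd5 siRNA against control siRNA in resting macrophages, that is, the siSmyd5-labelled library given vehicle set against the siCtl-labelled library given vehicle. These are 2 of the 6 libraries of a series that has 1 library for each of 3 siRNAs (Smyd5, Phf2, control) and each of 2 agents (KLA, vehicle). Both held poly(A) RNA of thioglycollate-elicited peritoneal macrophages from female C57BL/6 mice, kept for 48 hours with the siRNA, and both have vehicle as their labelled agent, although the treatment text that all samples share names KLA for every one of them. KLA, Kdo2-lipid A, is the lipid anchor of bacterial lipopolysaccharide, and it was used at 100 ng/ml for 4 hours in the other pair of siSmyd5-labelled and siCtl-labelled libraries. Mice were not genetically altered as far as the labels say, the number of animals is not given in them, and an siRNA lowers a transcript without removing it. For each of 23282 gene symbols the transcript with most reads over the 6 libraries was kept, and the 7995 genes averaging 10 reads or more were compared. Of these, 62 had fewer than 10 reads summed over the 2 vehicle libraries.

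SMYD5 is a lysine methyltransferase that trimethylates lysine 20 of histone H4. In macrophages it is known to be brought by the NCoR corepressor to promoters of Toll-like receptor 4 target genes, where the mark is part of the brake on inflammatory transcription in resting cells, and the demethylase PHF2 takes the mark off after stimulation. The comparison therefore asks which transcripts differ in cells labelled as unstimulated when less Smyd5 transcript is present. With 1 library per group, there is no replicate check and no p-value: sizes are given as ratios of scaled reads, siSmyd5 over siCtl, with an exact 95% interval that covers counting error only. Reads were counted without molecular identifiers, so they are not independent molecules.

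The siSmyd5-labelled vehicle library held 921923 reads and the siCtl-labelled vehicle library 1359283. The ribosomal RNA precursor Rn45s took 1.2% and 0.621% of them. After scaling with trimmed means of M-values (TMM), a gene at equal level in both libraries has 1.61 reads in the siCtl-labelled library for each read in the siSmyd5-labelled one. The tag totals printed in the table's headers gave whole reads for 100% of values in both siSmyd5 columns, but for 2.43% in the siCtl vehicle column. That column gave 100% whole reads with the total printed for the siPhf2 vehicle column, and the reverse held too, and which of names and totals was exchanged cannot be told apart here. The columns are used under their printed names. The siPhf2-labelled vehicle library, with 577055 reads of which Rn45s took 66.7%, would be the control if the names were exchanged, and list medians and called genes named here are given against it where their direction turns. The KLA columns show the same pattern: the siCtl-labelled KLA column gave 2.43% whole reads with its own total and 100% with that of the siPhf2-labelled KLA column, so the same doubt lies on every KLA ratio, and none was computed against the siPhf2-labelled KLA library. In the same bulk RNA, fewer cells of a type and less RNA per cell cannot be told apart.

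Smyd5 itself (NM_144918, chr6:85381970-85396423, mm9) was lower in the library named for it. It had 9 reads in the siSmyd5-labelled vehicle library and 44 in the siCtl-labelled vehicle library. This is a ratio of 0.329 (95% interval 0.141 to 0.683), or 0.316 (0.136 to 0.656) after the median of genes of like mRNA length is subtracted. Smyd5 had 3 reads in the siPhf2-labelled vehicle library, and against that much shallower library the siSmyd5-labelled one stood at 0.390 (0.0972 to 2.24) after length subtraction, an interval that includes equality. Under KLA it had 20 reads in the siSmyd5-labelled and 29 in the siCtl-labelled library, and the pair did not differ beyond counting error. Phf2 (NM_011078, chr13:48897119-48966254), the opposing demethylase, had 52 reads in the siSmyd5-labelled and 113 in the siCtl-labelled vehicle library, a ratio of 0.740 before length subtraction whose interval (0.522 to 1.04) includes equality. The siPhf2-labelled vehicle library had 29 Phf2 reads, which is 118 scaled reads per 1000000, against 34.3 with Smyd5 siRNA and 46.4 with control siRNA, so Phf2 was not lower in the library labelled for its knockdown. Under KLA, Phf2 had 34 reads in the siSmyd5-labelled and 120 in the siCtl-labelled library. This pair did differ beyond counting error, at 0.542 (0.359 to 0.799) after length subtraction, under the same doubt about the siCtl name.

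Across the transcriptome the ratio ran with transcript length. Calls rest on size: the log2 ratio, with 2 reads added per library of mean scaled size, had to reach 1 in either direction, and the counting interval had to exclude equality. By this rule 192 genes (2.4% of those compared) were higher and 399 (4.99%) were lower in the siSmyd5-labelled library. With total reads in place of TMM the split was 109 higher and 560 lower, as that scaling moves the median log2 ratio of all genes to −0.12, against −0.0049 with TMM, and every ratio here is relative to the TMM scale. The 192 higher genes had a median mRNA length of 1325 bases and the 399 lower genes 5006 bases, against 2913 bases over all genes. The shortest decile of genes had a median log2 ratio of 0.46, with 85 higher and 3 lower, and the longest decile had −0.49, with 5 higher and 135 lower. Spearman's rho of the ratio with mRNA length was −0.46 across the 7995 genes, which share both libraries and are not independent replicates.

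To describe genes apart from this trend, the median log2 ratio of the 400 genes nearest in length rank was subtracted from each ratio and from its interval. After that subtraction 122 genes (1.53%) were called higher and 278 (3.48%) lower. Of these, 82 and 221 had been called in the same direction before it. Their median lengths became 3337 bases (higher) and 3140 bases (lower). A trend with base composition was left: the genes called higher had a median GC content of 43.9%, those called lower 51.9% and all genes 50.0%, and 76 of the 122 and 215 of the 278 were still called when the median of genes of like GC content was subtracted too. Its part in the results below was not tested beyond that subtraction. The calls lie on a continuous slope of sizes. Among the higher genes 43 had log2 ratios of 1 to 1.1, while 68 genes at 0.9 to 1 with intervals above equality stayed outside the bound. The lower side had 87 inside and 80 outside over the same steps. Ratios, log2 ratios and counts of called genes given below are after the length subtraction unless a sentence says otherwise. List counts are to be read beside the shares over all genes, 1.53% higher and 3.48% lower after the subtraction. The shares before it were 2.4% and 4.99%.

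**Figure D1:**
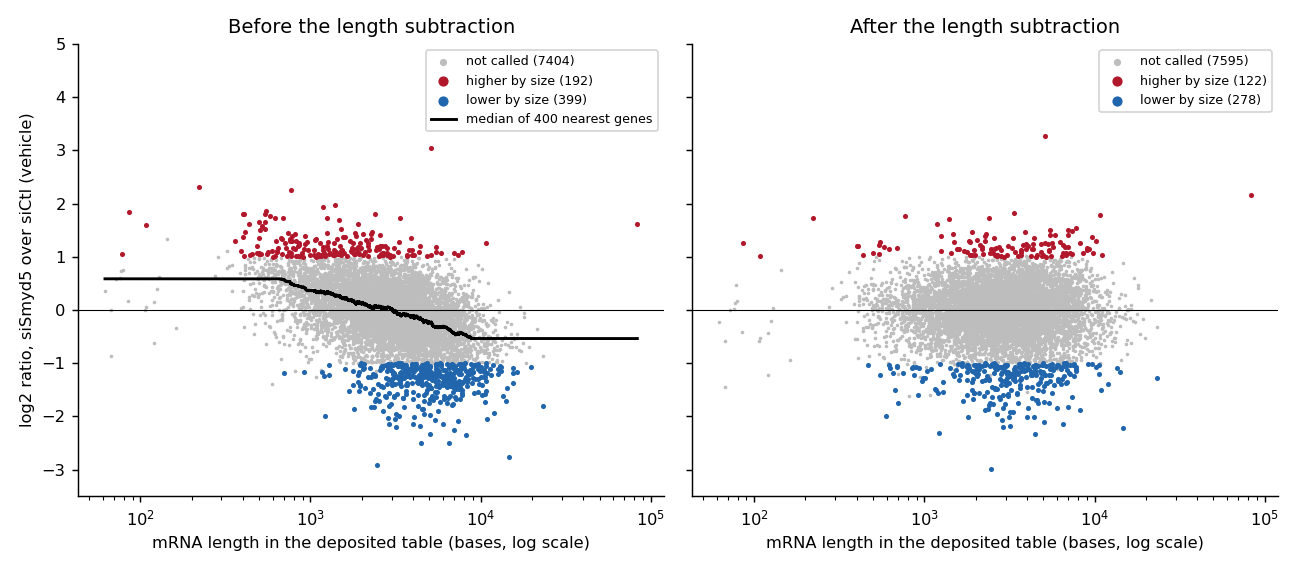
Log2 ratio of siSmyd5 over siCtl under vehicle for 7995 genes (points) against mRNA length in bases on a log scale, before (left) and after (right) subtracting the running median of the 400 nearest genes in length (black line). Before subtraction the 192 genes called higher are mostly short and the 399 called lower mostly long, and after it 122 and 278 are called at similar lengths.

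The genes of cholesterol synthesis were higher as a group. The pathway runs from acetyl-CoA through mevalonate, farnesyl pyrophosphate and squalene to lanosterol and cholesterol, and its genes are switched on by the transcription factor SREBP2 when membrane sterol is low. Of 29 listed genes 21 had enough reads, and 4 of these were called higher and 0 lower, against 1.53% and 3.48% over all genes. The median log2 ratio of the 21 was 0.52, against −0.0006 over all genes, and 19 of the 21 were above 0. As the list's earlier results were known when it was written, this is a description and no independent support.

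The 4 called genes act at different steps. Mvd (chr8:124957496-124967322), which makes isopentenyl pyrophosphate, had 91 reads in the siSmyd5-labelled and 64 in the siCtl-labelled library, a ratio of 2.12 (1.52 to 2.96). Sqle (NM_009270, chr15:59146647-59162748), the squalene epoxidase and a rate-controlling step after the mevalonate branch, had 288 and 198 reads in that order of libraries, a ratio of 2.29 (1.90 to 2.76). Cyp51 (NM_020010, chr5:4080674-4104697), the lanosterol demethylase, had 152 reads in the siSmyd5-labelled and 113 in the siCtl-labelled library, a ratio of 2.41 (1.88 to 3.11). All 4 thus had more reads in the shallower library, the last of them being Sc4mol. Sc4mol (NM_025436, chr8:67196942-67212375), which removes methyl groups from sterol carbon 4 and is now named Msmo1, had 265 reads in the siSmyd5-labelled and 155 in the siCtl-labelled library, a ratio of 2.48 (2.0 to 3.05).

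Below the bound lay Sc5d, the sterol desaturase, at 1.91 (1.47 to 2.47) and Srebf2, which encodes SREBP2, at 1.41 (1.13 to 1.76). The interval of Insig1, which holds SREBP2 in the endoplasmic reticulum (1.02, 0.688 to 1.51), included equality. The size of the ratio thus differed among members of the list. Under KLA, in libraries that share none with this pair, Sqle, Cyp51 and Sc4mol were called higher again and Mvd stood at 1.06 (0.681 to 1.65). The result depends on which library is the control: against the siPhf2-labelled vehicle library the median log2 ratio of the same 21 genes was −0.37. Against it Sqle stood at 2.28 (1.42 to 3.91), Sc4mol at 1.48 (0.927 to 2.49), Cyp51 at 1.29 (0.844 to 2.06) and Mvd at 0.661 (0.380 to 1.23), where only the interval of Sqle excludes equality. Summed over the whole list, scaled reads per 1000000 were 1316 in the siSmyd5-labelled, 834 in the siCtl-labelled and 1605 in the siPhf2-labelled vehicle library.

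Promoter sequences are shown for the called sterol genes because these genes were called together under vehicle and SREBP2 promoters are known to pair sterol elements with CCAAT boxes bound by NF-Y. The sequences run from 250 bases before to 50 bases after the RefSeq start on GRCm38.p6, a later build than the mm9 of the deposited table, and were taken from RefSeq. Of the 21 genes 15 matched the RefSeq promoter table, where Sqle has no entry. CCAAT or its complement ATTGG, in capitals, stood in a window of 12 of the 15 genes, against 41.1% of 27025 genes. The Mvd window is chr8:122443373-122443672 on the minus strand, with matches that begin 60 and 27 bases before the start.
Mvd promoter: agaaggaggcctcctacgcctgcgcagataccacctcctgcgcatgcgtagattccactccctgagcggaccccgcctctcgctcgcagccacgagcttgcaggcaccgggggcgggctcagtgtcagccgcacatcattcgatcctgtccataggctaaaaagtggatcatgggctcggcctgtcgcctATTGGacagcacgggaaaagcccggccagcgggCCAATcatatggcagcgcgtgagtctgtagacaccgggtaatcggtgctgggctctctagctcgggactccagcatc
The Cyp51 window is chr5:4104648-4104947 on the minus strand, with a match 29 bases before the start.
Cyp51 promoter: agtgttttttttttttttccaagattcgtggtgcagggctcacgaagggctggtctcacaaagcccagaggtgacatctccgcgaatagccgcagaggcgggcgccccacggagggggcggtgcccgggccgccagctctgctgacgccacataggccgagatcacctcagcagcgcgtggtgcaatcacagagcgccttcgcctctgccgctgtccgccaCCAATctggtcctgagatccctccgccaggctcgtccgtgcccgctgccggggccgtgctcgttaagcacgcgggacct
The Sc4mol (Msmo1) window is chr8:64733529-64733828 on the minus strand, with matches 160, 96 and 55 bases before the start.
Sc4mol promoter: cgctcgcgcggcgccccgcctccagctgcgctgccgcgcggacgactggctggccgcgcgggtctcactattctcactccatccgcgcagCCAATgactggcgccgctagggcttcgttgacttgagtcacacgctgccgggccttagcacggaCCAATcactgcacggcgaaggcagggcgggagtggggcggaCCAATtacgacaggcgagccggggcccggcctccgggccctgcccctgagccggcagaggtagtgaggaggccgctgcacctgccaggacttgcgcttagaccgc
The sterol element spelled CACCCCAC, on either strand, was in 0 of the 15 genes and 3.3% of all genes, and CACNCCAC, which includes it, was in 1 of 15 and 7.12%. These counts describe letters in a window and no site of binding.

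Immediate early genes, which growth factor and stress signals switch on without new protein synthesis, were lower. Of 29 listed genes 21 had enough reads, and 0 were called higher and 7 lower, against 1.53% and 3.48% over all genes. The median log2 ratio of the 21 was −0.60, against −0.0006 over all genes. Before the length subtraction 5 of the 21 were called lower and the median was −0.45. Against the siPhf2-labelled vehicle library the median was −0.63 after and −0.09 before the subtraction. Of the called genes, Dusp4 and Ier3 turned round there, with 1 and 0 reads in the siPhf2-labelled library, and only Egr2 had an interval that excluded equality.

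The called members were transcription factors and feedback phosphatases. Dusp4 (NM_176933, chr8:35870664-35882948), a phosphatase of nuclear MAP kinases, had 15 reads in the siSmyd5-labelled and 85 in the siCtl-labelled library, a ratio of 0.269 (0.144 to 0.469). Dusp6 (NM_026268), the cytoplasmic phosphatase of ERK, had 6 reads in the siSmyd5-labelled and 38 in the siCtl-labelled library, a ratio of 0.248 (0.0856 to 0.591). Myc had 16 reads in the siSmyd5-labelled and 65 in the siCtl-labelled library, a ratio of 0.375 (0.203 to 0.656). Each of these is a readout gene of the MAP kinase and growth factor pathway. The zinc finger factors Egr1 and Egr2 stood at 0.396 (0.185 to 0.778) and 0.467 (0.292 to 0.724). The AP-1 subunit Fos, with 23 reads in the siSmyd5-labelled and 74 in the siCtl-labelled library, stood at 0.464 (0.277 to 0.749), and the survival gene Ier3 at 0.442 (0.248 to 0.757).

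The list was not uniform. Its 4 members with the most reads were not called. Atf3, a stress-response repressor gene with 304 reads in the siSmyd5-labelled and 352 in the siCtl-labelled library, stood at 1.27 (1.08 to 1.48) and the zinc finger gene Klf6 at 1.25 (1.07 to 1.46). The AP-1 subunit gene Jun stood at 0.774 (0.612 to 0.974) and the phosphatase gene Dusp1 at 0.824 (0.655 to 1.03). Under KLA only Dusp4 and Myc of the 7 were called lower again, at 0.486 (0.375 to 0.624) and 0.433 (0.302 to 0.610).

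**Figure D2:**
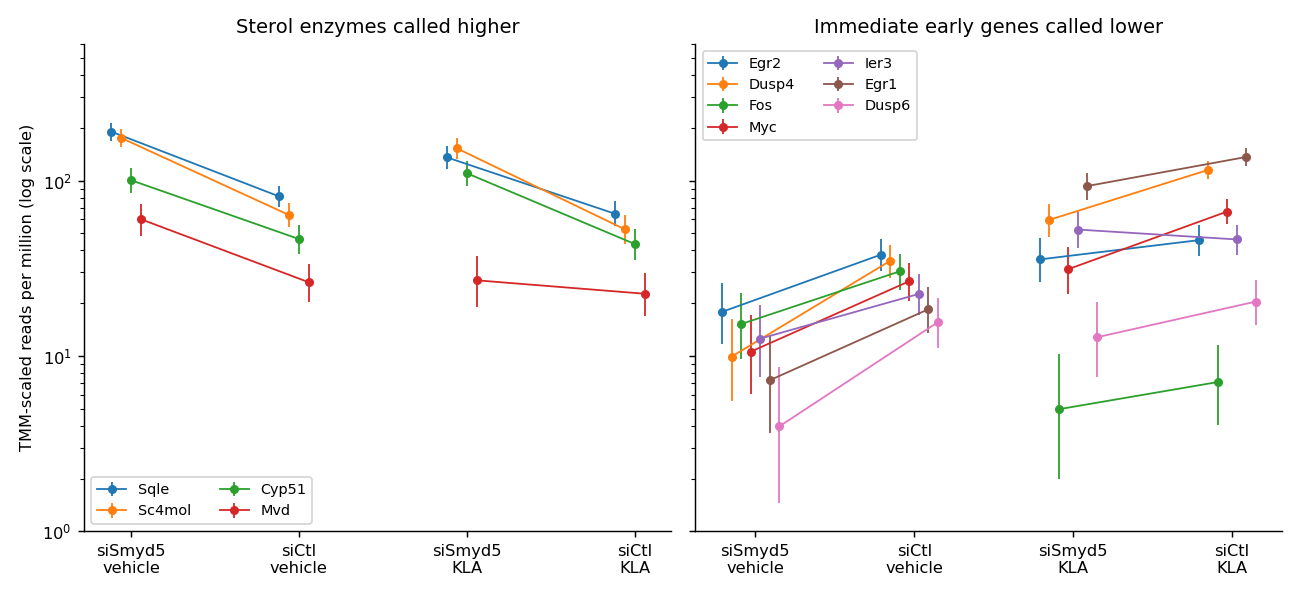
TMM-scaled reads per 1000000, on a log axis, of the 4 sterol enzymes called higher (left) and the 7 immediate early genes called lower (right) in 4 libraries, 1 point per gene and library, with exact 95% Poisson bars for counting error. In the vehicle pair every sterol enzyme is higher and every immediate early gene lower in siSmyd5, and in the KLA pair the Mvd values lie closer together.

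Inflammatory mediators, the known targets of the SMYD5 brake, had few reads at rest and showed no group-wide rise. Of 39 listed cytokines and chemokines 29 passed the filter, which counts KLA libraries too, and 11 of these had fewer than 10 reads over the vehicle pair. Called were 0 higher and 1 lower, with a median log2 ratio of −0.38 over the 18 with enough reads. Tnf (NM_013693, chr17:35336336-35338941), the macrophage's main early cytokine, had 13 reads in the siSmyd5-labelled and 28 in the siCtl-labelled library, a ratio of 0.639 (0.304 to 1.27). The chemokine Ccl5 had 240 reads in each library, a ratio of 1.07 (0.894 to 1.29) and of 1.61 (1.34 to 1.93) before the length subtraction, its mRNA being 528 bases long.

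Other secreted factors lay on both sides of equality. The best-covered were the interleukin-1 antagonist gene Il1rn (1.08, 0.935 to 1.25) and Tgfb1 (1.1, 0.949 to 1.28). Ccl3 stood at 1.19 (0.819 to 1.73), Ccl2 at 0.664 (0.477 to 0.918) and the scavenger-receptor chemokine Cxcl16, with 152 reads in the siSmyd5-labelled and 136 in the siCtl-labelled library, at 1.72 (1.35 to 2.18). The growth factor Csf1, which keeps macrophages alive, had 61 reads in the siSmyd5-labelled and 182 in the siCtl-labelled library, a ratio of 0.523 (0.385 to 0.703). The member called lower was the interleukin-6 family cytokine Osm, with 3 reads in the siSmyd5-labelled, 18 in the siCtl-labelled and 0 in the siPhf2-labelled vehicle library, against which it turned round. Il1b (1 and 0 reads) and Il6 (1 and 9 reads), named in that order of libraries, were too low for a ratio to be read. At this depth a rise in the least expressed cytokines would not have been detectable.

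The signalling genes upstream of these mediators were close to the median with the siCtl-labelled library as control. Of 20 Toll-like receptors and adaptors 0 were called higher and 1 lower, against 1.53% and 3.48% over all genes. Their median log2 ratio was 0.05. Tlr4 (NM_021297), the receptor for lipid A, had 172 reads in the siSmyd5-labelled and 307 in the siCtl-labelled library, a ratio of 0.970 (0.800 to 1.17). The exception was Tlr8, an endosomal RNA sensor, with 38 reads in the siSmyd5-labelled and 167 in the siCtl-labelled library, a ratio of 0.371 (0.254 to 0.531). Cd14, the co-receptor that hands lipid to Tlr4, stood at 1.58 (1.33 to 1.89) and Ly96, which encodes the lipid-binding MD-2 chain, at 1.49 (1.09 to 2.04). Ly96 was called higher before the length subtraction, at 2.23 (1.63 to 3.05), and its mRNA is 598 bases long.

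Of 27 NF-kB pathway genes 0 were called in either direction, with a median log2 ratio of −0.13. Rela, the main activating subunit, stood at 0.947 (0.761 to 1.17), Nfkb1 at 1.02 (0.788 to 1.32), the inhibitor Nfkbia at 0.786 (0.537 to 1.14) and Tnfaip3, which encodes the feedback enzyme A20, at 0.743 (0.545 to 1.0). With the siPhf2-labelled vehicle library as control the median of the 27 was −0.87. There 1 was called higher and 9 lower, against 786 and 958 of all 7995 genes. Of 47 interferon-stimulated genes 1 was called higher and 0 lower, with a median of −0.18. That gene was Ifi205, of the DNA-sensing PYHIN family, with 18 reads in the siSmyd5-labelled and 9 in the siCtl-labelled library. It was not called when GC content was subtracted as well, and 2 others were then called lower. The median was 0.30 against the siPhf2-labelled vehicle library, and Ifi205 turned round there. In the KLA pair the median of the same 47 genes was 0.54. Neither the vehicle nor the KLA pair has a replicate, and the difference between these medians was not tested.

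Few corepressor and H4K20 genes stood apart. Of 11 genes of the NCoR corepressor complexes 0 were called, with a median log2 ratio of −0.12. Ncor1 had 305 reads in the siSmyd5-labelled and 480 in the siCtl-labelled library, a ratio of 1.47 (1.27 to 1.70). Before the length subtraction Ncor1 stood at 1.02 (0.883 to 1.18). Of 12 genes of the Smyd and Phf2 families and H4K20 enzymes only Smyd5 was called, with 10 of the 12 below 0 and a median of −0.21. The H4K20 monomethylase gene Setd8 stood at 0.796 (0.625 to 1.01).

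**Figure D3:**
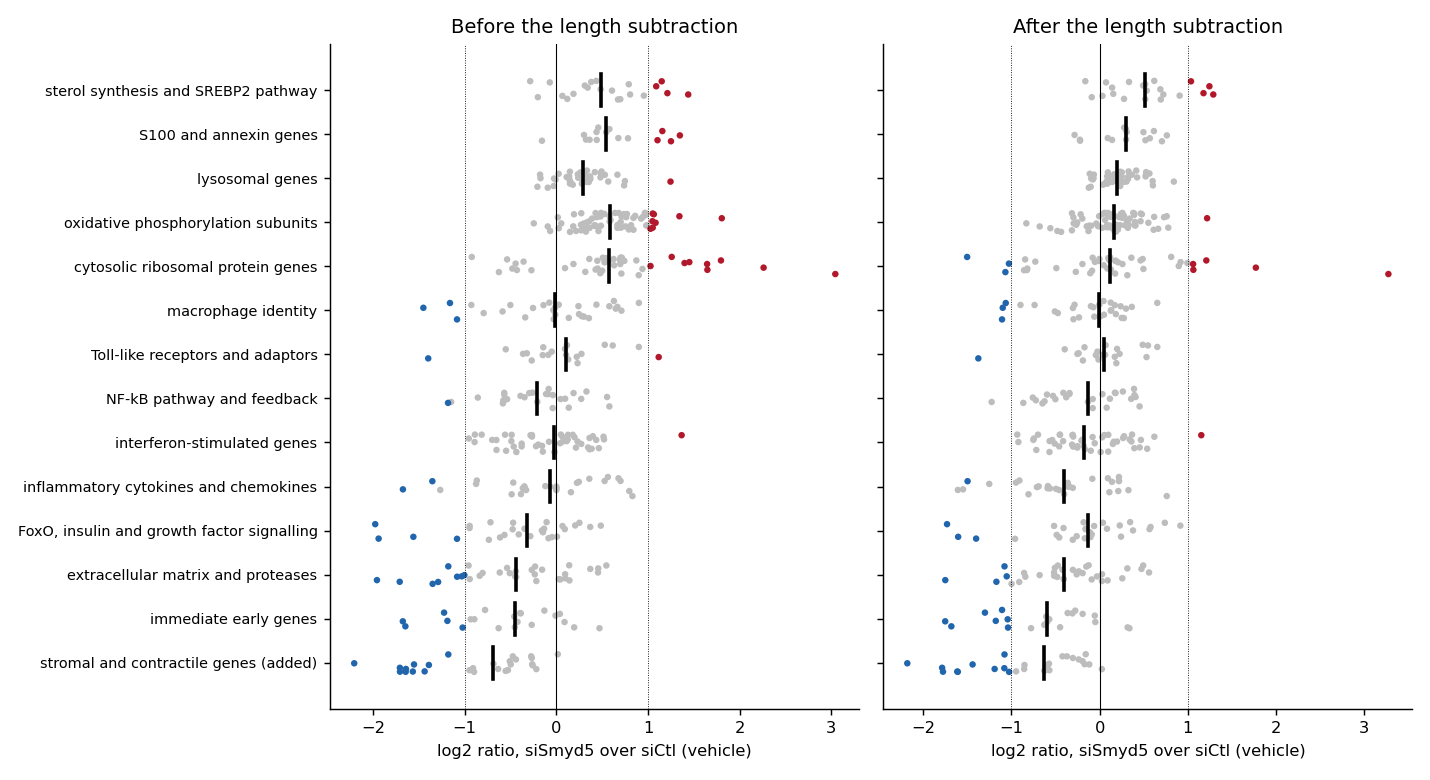
Log2 ratios of siSmyd5 over siCtl under vehicle of the members (points) of 14 gene lists, before (left) and after (right) the length subtraction, with each list's median as a black bar, called genes in red (higher) and blue (lower), and the bounds of 1 and −1 dotted. The sterol median lies right of 0 in both panels and the immediate early and stromal medians left, while oxidative phosphorylation and ribosomal protein genes lie nearer 0 after the subtraction.

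The labelled cell type was checked against 35 macrophage identity genes, of which 29 had enough reads. Several had plentiful reads in both libraries. The cathepsin gene Ctss had 8070 in the siSmyd5-labelled and 8181 in the siCtl-labelled library. In that order the galectin gene Lgals3 had 6311 and 8375, and the endosomal marker Cd68 2454 and 3202. Other members fell below the filter, with few or no reads in both. In the same order Marco had 4 and 14, Ccr2 5 and 6, Timd4 1 and 3, Cx3cr1 1 and 1, and Cd163 0 and 0. The median log2 ratio of the 29 was −0.003, and 0 were called higher and 3 lower, against 1.53% and 3.48% over all genes. Among the called genes were the lineage transcription factor gene Cebpa (88 reads in the siSmyd5-labelled and 304 in the siCtl-labelled library, ratio 0.458, 0.357 to 0.583) and the sialic-acid receptor Siglec1 (65 and 292 reads, 0.457, 0.344 to 0.600). All 3 lie close to the bound, and none stayed called when GC content was subtracted as well. Cebpa had 6 reads in the siPhf2-labelled vehicle library and turned round against it. The receptor Csf1r, which senses Csf1, stood at 1.19 (1.04 to 1.36).

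Genes of fibroblasts and contractile cells were lower. This list of 32 genes was put together after their values had been seen, so its counts describe and support nothing. Of 27 with enough reads 0 were called higher and 10 lower, and the median log2 ratio was −0.63. Ctgf (NM_010217, chr10:24315248-24318488), a matricellular target of YAP and TGF-beta, had 23 reads in the siSmyd5-labelled and 129 in the siCtl-labelled library, a ratio of 0.271 (0.166 to 0.425). The chemokine Cxcl12, made by stromal cells, had 2 reads in the siSmyd5-labelled and 28 in the siCtl-labelled library (0.117, 0.0135 to 0.463). The caveolar coat gene Cav1 had 3 and 24 reads in that order (0.191, 0.0369 to 0.630), and the gap junction gene Gja1 had 10 and 58 (0.284, 0.129 to 0.560). The others called were Acta2, Cald1, Cyr61, Lox, Mxra8 and Tnc, at 0.280 (Mxra8) to 0.477 (Cyr61), and Cyr61 was not called when GC content was subtracted as well. The fibrillar collagen genes differed less: Col1a1, with 276 reads in the siSmyd5-labelled and 604 in the siCtl-labelled library, stood at 0.847 (0.732 to 0.978) and Col3a1 at 0.873 (0.745 to 1.02).

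Markers of mesothelium and fibroblasts had a lower summed level too, before any length subtraction and without a call. Of 15 listed, 5 had enough reads and 0 were called, with a median log2 ratio of −0.24. The summed level of all 15 was 691 scaled reads per 1000000 in the siSmyd5-labelled and 939 in the siCtl-labelled library. This sum is not length-subtracted, and the 5 had a median mRNA length of 5091 bases, against 2913 over all genes. Of the mesothelial genes, Wt1 had 7 reads in the siSmyd5-labelled and 27 in the siCtl-labelled library, and Lrrn4 had 3 and 26 in that order. Upk1b and Upk3b were at 0 in the siSmyd5-labelled library, against 9 and 4 reads with control siRNA. The rest had few reads in both: Msln 1 in the siSmyd5-labelled and 4 in the siCtl-labelled library, Krt19 1 and 3, and Krt18 2 and 4. Krt8 went the other way, with 2 and 1. Whether a smaller share of other cells has a part in the lower stromal genes was not tested. Against the siPhf2-labelled vehicle library the median of the 27 stromal genes was 0.45 and that of the 5 markers 0.83. The direction thus turns with the choice of control library, Lox and Cyr61 included. In the siPhf2-labelled vehicle library Msln had 3 reads, Wt1 and Krt19 had 1 each, and Lrrn4, Upk1b, Upk3b, Krt8 and Krt18 had 0.

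Other cell types were scarce in both libraries. The defining B cell gene Ms4a1 had 0 reads in the siSmyd5-labelled library, against 9 with control siRNA. The T cell genes Cd3d, Cd3e and Cd3g had 2, 1 and 0 reads in the siSmyd5-labelled library, against 1, 0 and 0 with control siRNA. The eosinophil genes Epx and Prg2 and the globin gene Hbb-b1 were at 0 in both. The summed levels in scaled reads per 1000000 were 66.7 in siSmyd5 and 76.8 in siCtl for B cell markers, 162 and 132 for neutrophil markers in that order, 18.5 and 21.4 for eosinophil and mast cell markers, 103 and 96.5 for dendritic cell markers, and 43.6 and 23.0 for erythroid and platelet markers. The T and NK cell markers summed to 468 in siSmyd5 and 308 in siCtl, nearly all of it from Il7r.

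Matrix and protease genes were lower beyond the length trend in part. Of 33 tested 0 were called higher and 4 lower, against 1.53% and 3.48% over all genes. Their median log2 ratio was −0.41. Before the length subtraction 8 of the 33 had been called lower, against 4.99% over all genes. Among the called genes were the basement membrane proteoglycan gene Hspg2 (42 reads in the siSmyd5-labelled and 229 in the siCtl-labelled library, 0.428, 0.30 to 0.597), the protease inhibitor gene Timp3 (2 and 23 reads, 0.161, 0.0184 to 0.652) and the collagen cross-linking oxidase gene Lox (10 and 41 reads, 0.420, 0.188 to 0.853). Macrophage matrix genes with many reads lay on both sides of equality. Spp1, encoding osteopontin, had 3784 reads in the siSmyd5-labelled and 6780 in the siCtl-labelled library (0.746, 0.717 to 0.777), and the elastase gene Mmp12 had 7534 and 9377 (1.39, 1.35 to 1.43). With the siPhf2-labelled vehicle library as control the median of the 33 was 0.39 and Timp3 and Lox turned round. Hspg2 was not called when GC content was subtracted as well.

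Genes of insulin and FoxO signalling included 3 called lower of 28, with 0 higher, against 3.48% lower and 1.53% higher over all genes. The median log2 ratio of the 28 was −0.13. Foxo3 (NM_019740, chr10:41905592-41996548), a transcription factor of stress resistance that insulin holds in check, had 12 reads in the siSmyd5-labelled and 64 in the siCtl-labelled library, a ratio of 0.292 (0.144 to 0.546). Grb10, an adaptor that dampens insulin receptor signalling, had 4 and 36 reads in that order (0.212, 0.0547 to 0.591), and the receptor Igf1r 4 and 35 (0.267, 0.0689 to 0.746). Fbxo32, a known FoxO target that encodes atrogin-1, lay on the other side, with 281 reads in the siSmyd5-labelled and 322 in the siCtl-labelled library (1.89, 1.61 to 2.23).

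Among lipid genes outside the sterol list, the desaturase Scd2 (NM_009128, chr19:44368166-44381352) was called higher, with 51 reads in the siSmyd5-labelled and 34 in the siCtl-labelled library (3.01, 1.91 to 4.79). So was the long-chain acyl-CoA synthetase gene Acsl3 (42 and 29 reads, 2.50, 1.52 to 4.17). Called lower were Cpt1a, the gate of mitochondrial fatty acid oxidation (49 reads in the siSmyd5-labelled and 211 in the siCtl-labelled library, 0.416, 0.298 to 0.570), Angptl4, an inhibitor of lipoprotein lipase (16 and 55 reads, 0.423, 0.226 to 0.748), and Nr1h3, encoding the sterol sensor LXRalpha (24 and 77 reads, 0.449, 0.271 to 0.717). Of 18 LXR pathway genes these were 1 higher and 1 lower, with a median log2 ratio of 0.05, and of 24 fatty acid and PPARg genes 1 was higher and 2 lower, with a median of −0.06. The LXR targets Abcg1, a cholesterol exporter (1.02, 0.883 to 1.17), and Abca1 (0.732, 0.588 to 0.904) were not called. Nr1h3 was called neither before the length subtraction nor when GC content was subtracted as well, and against the siPhf2-labelled vehicle library the LXR median was −0.16. Single genes of other metabolic lists were also called: the lactate exporter gene Slc16a3 was higher (266 reads in the siSmyd5-labelled and 186 in the siCtl-labelled library, 2.23, 1.84 to 2.70), and the cytokine and hypoxia gene Mif (0.416), the sulfiredoxin gene Srxn1 (0.471) and the siderophore-binding Lcn2 (0.444) were lower. Lcn2 was not called when GC content was subtracted as well, and Mif and Srxn1 turned round against the siPhf2-labelled vehicle library.

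Oxidative phosphorylation, S100 and annexin genes lost most of their calls with the length subtraction, and lysosomal genes had few to lose. Of 70 oxidative phosphorylation subunits 8 were called higher before it and 1 after, with medians of 0.59 and 0.16. The gene left was Uqcrh, a complex III hinge subunit, with 112 reads in the siSmyd5-labelled and 49 in the siCtl-labelled library (2.45, 1.74 to 3.51). Of 15 S100 and annexin genes 4 were called higher before and 0 after, with medians of 0.54 and 0.30. S100a6 had 564 reads in the siSmyd5-labelled and 405 in the siCtl-labelled library (1.54, 1.35 to 1.75). Of 42 lysosomal genes 1 was called higher before the subtraction and 0 after, with medians of 0.29 and 0.20, and 35 of 42 lay above 0 after it. With the siPhf2-labelled vehicle library as control the lysosomal median was −0.07 and that of the S100 and annexin genes −0.15, so both turn.

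Of 43 cytosolic ribosomal protein genes with enough reads 9 were called higher and 0 lower before the length subtraction, with a median log2 ratio of 0.57. After it 5 were called higher and 3 lower, with a median of 0.12. These genes have many near-identical processed copies, and how reads matching more than 1 place were counted is not given in the sources used here, so each is uncertain. Rps15a (NM_170669, chr7:125247890-125259661) has a listed mRNA of 5129 bases and stood at 8.80 (6.425 to 12.28) before the length subtraction. It had 257 reads in the siSmyd5-labelled and 47 in the siCtl-labelled library, a ratio of 10.4 (7.57 to 14.5) after the subtraction. Rpl13 (NM_016738) had 86 and 26 reads in that order (3.80, 2.42 to 6.14). Rpl26, Rpl34 and Rps20 stood at 2.14, 2.38 and 2.12. The 3 lower were Rpl18 (15 reads in the siSmyd5-labelled and 49 in the siCtl-labelled library, 0.329, 0.172 to 0.597), Rpl7a (0.464, 0.291 to 0.722) and Rps19 (0.485, 0.353 to 0.660). Rps20, Rpl7a and Rps19 were not called when GC content was subtracted as well, and Rpl13, Rpl26 and Rps19 turned round against the siPhf2-labelled vehicle library. The iron-storage gene Ftl1, which also has many copies, had 3226 reads in the siSmyd5-labelled and 10212 in the siCtl-labelled library, a ratio of 0.396 (0.380 to 0.412). Fth1, the heavy chain of the same ferritin shell, had 20974 reads in the siSmyd5-labelled and 22589 in the siCtl-labelled library (1.1, 1.08 to 1.12).

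The large-transcript lists came to the middle, as lists of long genes tend to when the median of like-length genes is subtracted. Of 50 chromatin regulators with large transcripts 5 were called lower before the length subtraction and 1 after, the DNA demethylase gene Tet2 (15 reads in the siSmyd5-labelled and 78 in the siCtl-labelled library, 0.449, 0.240 to 0.787), and the median was −0.39 before and 0.02 after, and −0.27 against the siPhf2-labelled vehicle library. Of 42 giant cytoskeletal and adhesion genes 6 were called lower before and 3 after, with medians of −0.57 and −0.05. Those 3 were Fat1, Hspg2 and the cytoskeletal linker Dst (18 reads in the siSmyd5-labelled and 111 in the siCtl-labelled library, 0.379, 0.216 to 0.626). With the siPhf2-labelled vehicle library as control the median of the 42 was −1.165 after the subtraction. There 0 were called higher and 24 lower, against 786 and 958 of all 7995 genes.

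The largest ratios in either direction rested on few reads for many genes. After Rps15a, the 15 highest called both before and after the subtraction held the imprinted antisense RNA Kcnq1ot1 (91 reads in the siSmyd5-labelled and 45 in the siCtl-labelled library, 4.72, 3.27 to 6.91), 1110059G10Rik (26 and 10 reads), Tmem167 (49 and 31), Rpl13, the small nucleolar RNA Snord17 (9 and 0 reads, at least 4.83-fold higher before the length subtraction against a floor of 3 reads per library), Sp140 (23 and 8), Ier3ip1 (95 and 36), Cetn2 (28 and 9), Scd2, Hmgn5 (18 and 7) and Tfam (29 and 16). The best-covered among them were Malat1, a nuclear long noncoding RNA (2300 reads in the siSmyd5-labelled and 1759 in the siCtl-labelled library, 2.84, 2.67 to 3.02), Eif5b, a factor of ribosomal subunit joining (667 and 501 reads, 2.91, 2.58 to 3.27), and Mapre1, a microtubule plus-end protein gene (210 and 164 reads, 2.82, 2.29 to 3.48). Kcnq1ot1, Malat1 and Snord17 had 508, 10572 and 170 reads in the siPhf2-labelled vehicle library, where Rn45s was also high, so these turn round if that library is the control, as do Rpl13 and Scd2.

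At the other end stood Pkdcc, a secreted kinase gene, with 1 read in the siSmyd5-labelled and 36 in the siCtl-labelled library (0.0426, 0.00105 to 0.253), and Parva, an actin-binding partner of integrin-linked kinase, with 1 and 26 reads (0.0688, 0.00168 to 0.419). Socs1, a feedback inhibitor of cytokine signalling through JAK kinases, had 0 reads in the siSmyd5-labelled and 11 in the siCtl-labelled library, at least 2.28-fold lower before the length subtraction against the same floor. Adrbk2, a receptor kinase gene, had 0 and 17 reads (at least 3.52-fold lower) and Rcsd1 0 and 10 (at least 2.07-fold lower). The better-covered genes at this end were Fat1, a giant protocadherin gene (8 reads in the siSmyd5-labelled and 108 in the siCtl-labelled library, 0.173, 0.0728 to 0.353), Fzd1, a Wnt receptor gene (11 and 93 reads, 0.213, 0.103 to 0.398), and Abhd2, a lipid hydrolase gene (9 and 77 reads, 0.182, 0.0802 to 0.364). The chemerin receptor gene Cmklr1, with 3 reads in the siSmyd5-labelled and 31 in the siCtl-labelled library, Tmem26 (2 and 31), Lysmd3 (4 and 38), Zfp187 (4 and 41), the autophagy gene Wipi1 (5 and 39), the cofilin kinase gene Limk1 (5 and 43) and Cxcl12 made up the rest of the 15. Against the siPhf2-labelled vehicle library Cxcl12 and Lysmd3 lay on the other side of 0.

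**Figure D4:**
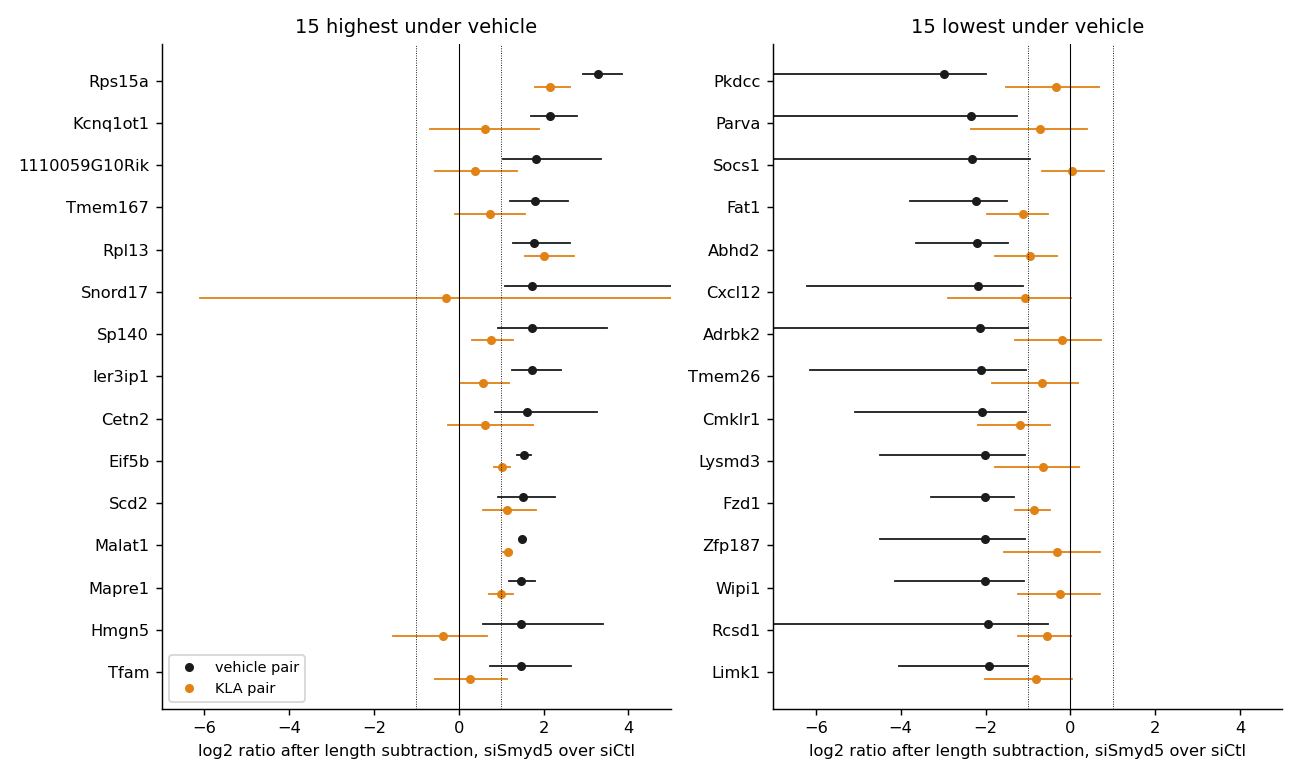
Log2 ratio after length subtraction, siSmyd5 over siCtl, of the 15 highest (left) and 15 lowest (right) genes of the vehicle pair, with vehicle values in black and KLA values in orange; lines are 95% counting intervals cut at the axis ends, points have 2 reads added, and dotted lines mark 1 and −1. Rps15a and Rpl13 are past 1 in both pairs, while Pkdcc and Socs1 lie near 0 under KLA.

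The same siRNAs were compared under KLA in libraries that share none with the vehicle pair, under the same doubt about the siCtl name. The agent differs, so this is no replicate. By size alone 138 genes (1.73%) were higher and 290 (3.63%) lower under KLA, and after the length subtraction 75 (0.938%) and 184 (2.3%). After the subtraction 20 genes were called higher in both pairs, which is 16.4% of the 122 under vehicle and 26.7% of the 75 under KLA. Called lower in both were 61 genes, 21.9% of the 278 and 33.2% of the 184, and 0 were called in opposite directions. Of the genes called under vehicle, 108 of 122 and 247 of 278 lay on the same side of 0 under KLA. The same share over all 7995 genes was not computed, so these counts do not set the called genes apart. Pearson's r between the pairs across the 7995 genes was 0.62 before the subtraction, 0.52 after it and 0.48 after length and GC content, as a description of genes that share mRNA length and base composition in both pairs.

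Highest by the mean of both pairs were Rps15a, Rpl13, the microRNA locus Mir5109 (44 reads in the siSmyd5-labelled and 17 in the siCtl-labelled vehicle library), Naca, a nascent polypeptide chaperone gene (42 and 33 reads), Cyp51, Malat1, Scd2 and 1200011I18Rik (57 and 41 reads). Naca has a listed mRNA of 7025 bases. Under vehicle it was not called before the length subtraction, at 2.05 (1.27 to 3.33), and stood at 2.79 after it. Lowest were Ctgf, with 23 reads in the siSmyd5-labelled and 129 in the siCtl-labelled library under vehicle and 12 and 79 under KLA, and Foxo3, with 12 and 64 under vehicle and 2 and 26 under KLA. Ston1 (5 and 36 reads under vehicle), Fat1, the glycosyltransferase gene B3gnt3 (6 and 33), Cmklr1, Gm98, which is now named Myrf (15 and 77), and the smooth muscle actin gene Acta2 (40 and 124) followed. Ctgf, Foxo3 and Acta2 thus were called lower in both pairs, whereas Smyd5 was called in the vehicle pair and stood at 1.07 (0.577 to 1.97) under KLA. Against the siPhf2-labelled vehicle library Mir5109, Ctgf, Ston1, B3gnt3 and Acta2 turned round, while Foxo3 stood at 0.105 (0.0454 to 0.237).

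**Figure D5:**
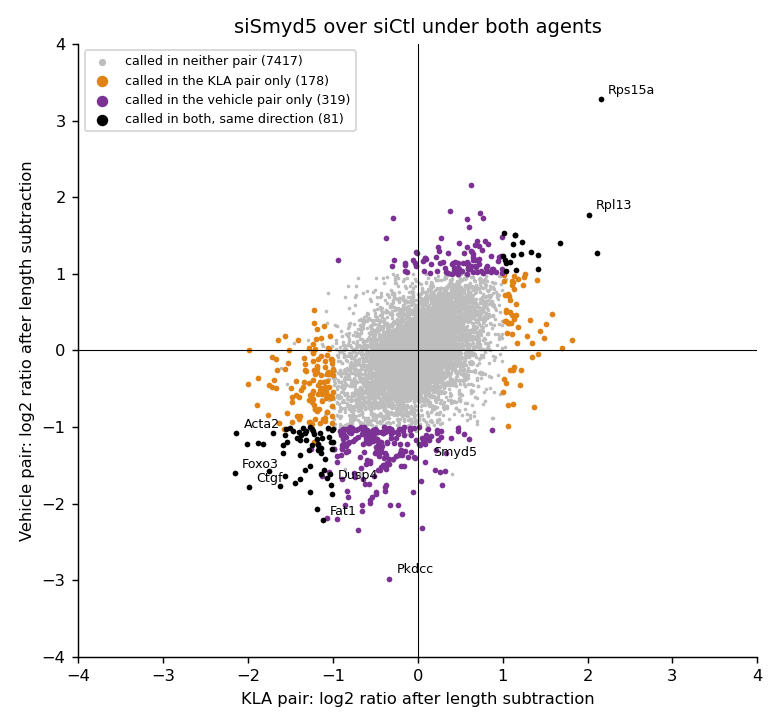
Log2 ratio of siSmyd5 over siCtl after length subtraction in the vehicle pair (vertical) against the KLA pair (horizontal) for 7995 genes (points), coloured by the pair in which they were called. The 81 genes called in both lie in the upper right and lower left corners, and Smyd5 and Pkdcc are low under vehicle while near 0 under KLA.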

How the data were processed

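Poly(A) RNA of 6 macrophage libraries was sequenced as short cDNA fragments, and 1 library per group leaves no replicates. The deposited table holds a signal per RefSeq transcript and library, tag counts that the authors normalized to 10000000 tags, per the file headers. HOMER and the build mm9 are named in the submitters' processing notes. Strand use is not given in the sources used here, nor is how reads with more than 1 match were treated, so genes with near-identical copies, overlapping genes and antisense pairs are uncertain. Whole reads were recovered by dividing each deposited signal by what 1 read is worth (whole within 0.02). TMM factors came from edgeR 4.0.16 in R 4.3.3, and ratios, exact conditional Poisson intervals and length subtraction from Python 3.11.15 with scipy 1.17.1. The genome-wide steps were tested on simulated data. Genes named are the 15 highest and lowest called before and after length subtraction, the 8 highest and lowest called under both agents, Smyd5, Phf2, and called or most-read members of lists. Other members were named after their values were seen. Members and lists were chosen with earlier results of these data known, and the stromal list and the GC subtraction were added after values were seen. Genes that only share a symbol prefix with ribosomal protein or oxidative phosphorylation genes (S6 kinases, for example) were taken off those lists after values were seen. Alternatives covered scaling, filters, reads added, length window and control library. Some list members are not reported here.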

Additional observations from a re-analysis of the deposited data

How the results depend on the processing

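The Smyd5 ratio before length subtraction was 0.302 to 0.334 in the settings that kept the gene and the control library, and 0.488 (0.122 to 2.80) against the siPhf2-labelled vehicle library, an interval that includes equality. A minimum mean of 50 reads left Smyd5 out. With DESeq2 size factors, TMM factors from the 2 libraries, 0.5 reads added, the longest transcript per symbol, 200 genes or a lowess curve for length, and GC content subtracted as well, the counts of called genes stayed within 1.5 times. Before length subtraction the higher genes numbered 109 with total reads as library size and 110 without Rn45s, 318 with a minimum mean of 1 read, 51 with 50 reads and 812 with a bound of 1.5-fold, and the lower genes 139 with 50 reads and 907 with the 1.5-fold bound. After it the higher genes numbered 246, 33 and 623 with a minimum of 1 read, a minimum of 50 reads and the 1.5-fold bound, and the lower genes 67 and 646 with the last 2 of these and 156 with 5 reads added. With the siPhf2-labelled vehicle library as control, 1070 genes were higher and 1213 lower before and 786 and 958 after length subtraction, of which 82, 219, 48 and 102 had been called in the same direction. The log2 ratio after length subtraction then turned for 12 of the genes ranked highest or lowest under vehicle or under both agents. It became −3.51 for Kcnq1ot1, −0.82 for Rpl13, −7.57 for Snord17, −0.44 for Scd2, −3.78 for Malat1 and −9.40 for Mir5109. It became 0.89 for Cxcl12, 1.40 for Lysmd3, 1.18 for Ctgf, 1.46 for Ston1, 1.32 for B3gnt3 and 0.11 for Acta2. Called list members that also turned, such as Dusp4 and Osm, are named with their lists. The cause was not tested. No paired analysis was possible because each group holds 1 library.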

Other observations

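Each group is 1 library, so no value here carries a replicate error, and intervals are too narrow for differences between cultures. The siSmyd5-labelled and siCtl-labelled vehicle libraries carried the same printed barcode, GT. The vehicle and KLA pairs came through the same procedure, and the length trend had the same direction in both, with medians of 0.46 under vehicle and 0.43 under KLA in the shortest decile of genes before length subtraction. Genes with few reads, such as most resting cytokines, could not be read at this depth.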
